A study of Mus musculus with 6 samples.

Results

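The genes described here are 9 cation channel genes of Schwann cells (SCs): the TRP channel genes Trpc1, Trpc4, Trpc6, Trpv2, Trpv4, Trpm4 and Trpm7, and the mechanosensitive channel genes Piezo1 and Piezo2. They were taken by gene identifier from 55401 genes listed in a table of exonic read counts, and all 9 were among the 22318 genes that passed a filter on low counts (2 or more in 5 or more libraries). The group was chosen by the genotype contrast of these same counts, because Trpc4 was higher in knockout cultures. The genotype differences of the 9 genes are therefore given as a description, with no test of their own.

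The libraries are bulk poly(A) RNA-seq of SCs in primary culture from adult mouse dorsal root ganglia, in 2 groups of 3 cultures, WT and Plxnb1-/-. Plxnb1 encodes Plexin-B1, a receptor for class 4 semaphorins, and the Plxnb1-/- mice carry a germline gene trap insertion (allele Plxnb1tm1Matl, C57BL/6 background). Both genotypes were grown with forskolin, neuregulin and serum, and both were depleted of Thy1-positive fibroblasts with magnetic beads before RNA was taken after several passages. Neither the labels nor the study's methods give the sex of the mice or say whether 1 culture came from 1 animal.

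TRP channels are cation channels built from tetramers, and most pass calcium. TRPC channels open downstream of Gq-coupled receptors and phospholipase C, TRPV channels respond to heat, swelling or lipids, TRPM4 is opened by calcium but passes only monovalent cations, and TRPM7 joins a magnesium- and calcium-permeable pore to a kinase domain. PIEZO1 and PIEZO2 form trimers that open when the membrane is stretched, and PIEZO2 is best known as the touch channel of sensory neurons.

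The libraries held from 59252048 to 77280964 counts. A gene was taken as detected from 3 counts, or from 0.0383 to 0.0512 CPM, which are counts scaled to library size. Plxnb1 itself was at 61.8, 45.4 and 96.4 CPM in WT replicates 1, 2 and 3 and at 13.1, 16.6 and 18.5 CPM in Plxnb1-/- replicates 1, 2 and 3, so the label and the targeted gene matched in all 6. WT replicate 2 stood apart, with a score of 47.4 on the first principal component against scores between -34.0 and 7.52 in the other 5 libraries. With calls set at an adjusted p under 0.05 and a log2 difference beyond 0.25 in size, edgeR called 8 of the 22318 genes, which is 0.0358%. DESeq2 called 335, which is 1.5%, and 3063 genes (13.7%) had an unadjusted edgeR p below 0.05.

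Among the TRPC genes, Trpc4 was higher in every Plxnb1-/- culture than in any WT culture, and Trpc1 and Trpc6 overlapped between the genotypes. Trpc4 encodes a receptor-operated, calcium-permeable subunit that can join TRPC1 in one channel. Trpc4 measured 1.94, 0.735 and 1.57 CPM in WT replicates 1 to 3, from 124, 43 and 111 counts. In Plxnb1-/- it measured 2.43, 3.41 and 3.07 CPM, from 190, 247 and 213 counts. The lowest knockout culture, replicate 1, thus lay above the highest WT culture, also replicate 1. The means were 1.41 ± 0.616 CPM in WT and 2.97 ± 0.498 CPM in Plxnb1-/- (SD, n = 3 each), a 2.10-fold difference and a log2 difference of 1.06 with a standard error (SE) of 0.29. WT replicate 2 was the low WT culture, and without it the log2 difference was 0.76.

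Trpc1, a subunit that mostly works in heteromers with other TRPC proteins, was at 8.95, 9.93 and 7.94 CPM in WT and at 9.42, 8.77 and 8.58 CPM in Plxnb1-/-. The knockout values lay inside the WT range, and the log2 difference was 0.00 (SE 0.09). Trpc6, a channel opened by diacylglycerol, was at 2.83, 1.54 and 1.72 CPM in WT and at 1.73, 1.81 and 1.43 CPM in Plxnb1-/-. Its genotypes overlapped, because only WT replicate 1 was high. The log2 difference of -0.29 (SE 0.23) became 0.02 once that culture was left out. Per length of merged exons, the ratio of Trpc4 to Trpc6 was 0.432, 0.301 and 0.574 in WT and 0.888, 1.19 and 1.36 in Plxnb1-/-, so Trpc6 was the higher of the pair in all 3 WT cultures and Trpc4 was the higher in 2 of the 3 knockout cultures. Per length of the longest coding transcript, the ratio ran from 0.448 to 0.854 in WT and from 1.32 to 2.02 in Plxnb1-/-, so that Trpc4 was the higher in all 3 knockout cultures.

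**Figure D1:**
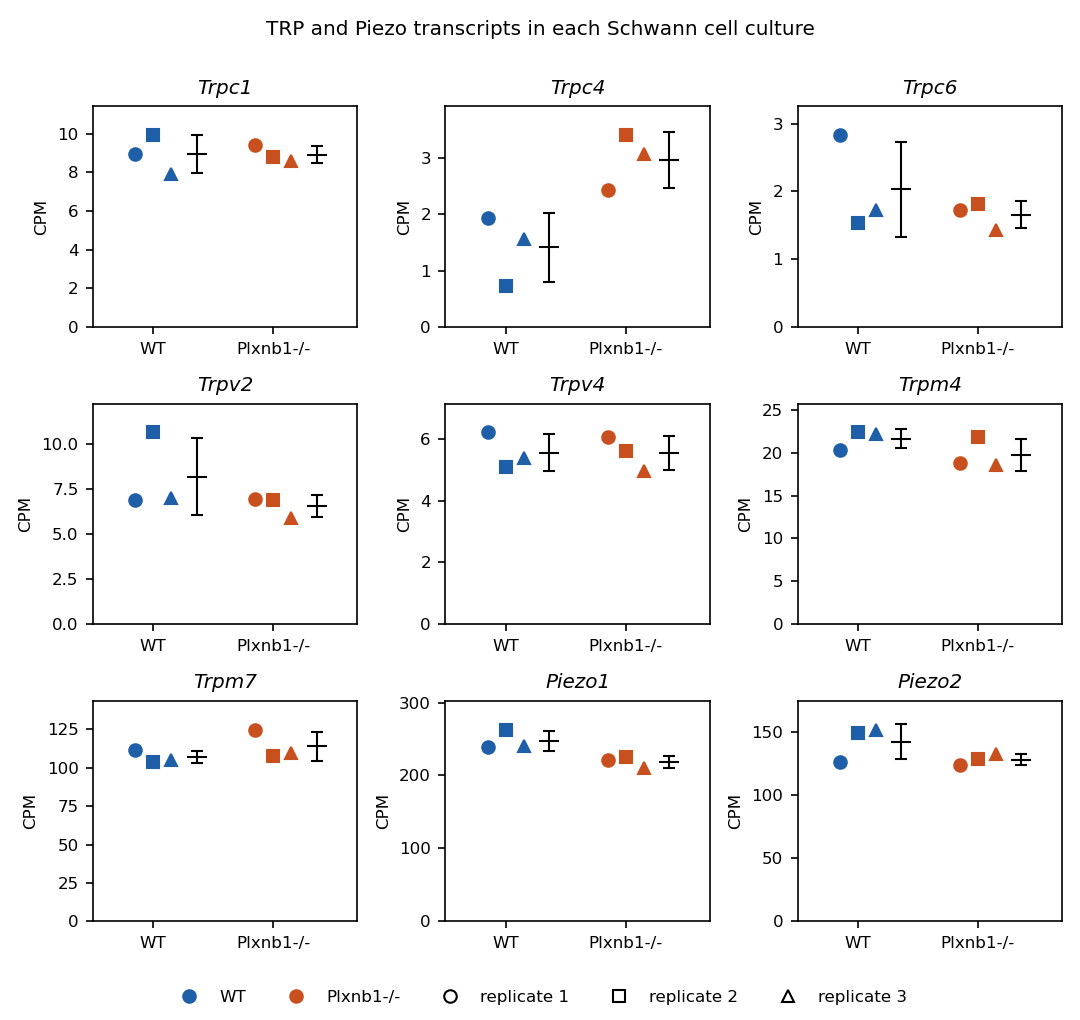
Normalized read count (CPM) of the 9 channel genes in each of the 3 WT and 3 Plxnb1-/- cultures, 1 panel a gene, with the genotype mean and SD (n = 3) beside the points. The points of the genotypes do not overlap for Trpc4, from 0.735 to 1.94 CPM in WT and from 2.43 to 3.41 CPM in Plxnb1-/-, and for Piezo1, from 239 to 263 CPM in WT and from 210 to 225 CPM in Plxnb1-/-.

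Both TRPV genes overlapped between the genotypes. Trpv2, a channel that responds to lipids, growth factors and strong heat, measured 6.86, 10.6 and 7.02 CPM in WT and 6.93, 6.87 and 5.87 CPM in Plxnb1-/-. A single culture, WT replicate 2, held the high value, and the log2 difference went from -0.31 (SE 0.17) to -0.08 without it. Trpv4, a channel gated by warmth and by swelling of the cell, measured 6.20, 5.07 and 5.38 CPM in WT and 6.04, 5.60 and 4.95 CPM in Plxnb1-/-. Its log2 difference was -0.01 (SE 0.11), and each genotype spanned nearly the same range.

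Both TRPM genes varied little across the cultures, and their genotypes overlapped. Trpm4 was at 20.4, 22.4 and 22.2 CPM in WT and at 18.8, 21.8 and 18.5 CPM in Plxnb1-/-. Knockout replicate 2 lay within the WT range while the other two lay below it, and the log2 difference was -0.13 (SE 0.08). Trpm7, which is found in nearly all cells and is needed for their magnesium balance, was at 112, 104 and 105 CPM in WT and at 125, 108 and 109 CPM in Plxnb1-/-. Its ranges overlapped through WT replicate 1, with a log2 difference of 0.09 (SE 0.06).

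Piezo1 was the second gene with no overlap, in the direction opposite to Trpc4 and with a far smaller fold. It measured 239, 263 and 240 CPM in WT and 222, 225 and 210 CPM in Plxnb1-/-. The means were 247 ± 13.5 and 219 ± 8.03 CPM (SD, n = 3 each), a ratio of 0.884 and a log2 difference of -0.18 (SE 0.05). Piezo2 measured 126, 149 and 152 CPM in WT and 124, 128 and 132 CPM in Plxnb1-/-, with a log2 difference of -0.15 (SE 0.07). WT replicate 1 lay among the knockout cultures, so the Piezo2 ranges overlapped. The ratio of Piezo1 to Piezo2 per length of merged exons was 3.02 ± 0.275 in WT and 2.96 ± 0.191 in Plxnb1-/- (SD, n = 3 each), a difference smaller than the spread within either genotype.

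Across the 9 genes, log2 differences ran from -0.31 for Trpv2 to 1.06 for Trpc4, with 6 below 0, 3 at or above 0 and a median of -0.13, where the median over all tested genes was 0.01. The genotypes did not overlap for 2 of the 9, 1 higher and 1 lower, where they did not overlap for 19.7% of all tested genes (9.29% higher and 10.4% lower). edgeR called 0 of the 9, where it called 0.0358% of all genes (0.00448% higher and 0.0314% lower). An unadjusted edgeR p below 0.05 was found for 2 of the 9, where 13.7% of all genes had one. DESeq2 called 1 of them, Trpc4, as higher, where it called 1.5% of all genes (0.69% higher and 0.811% lower). edgeR without the filter on low counts also called Trpc4 alone, where it called 0.949% of all genes (0.385% higher). Because the genes were chosen with this contrast in view, nothing is read from these counts. Trpc4 was the gene with the largest difference and also the one with the fewest counts in any library, 43.

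**Figure D2:**
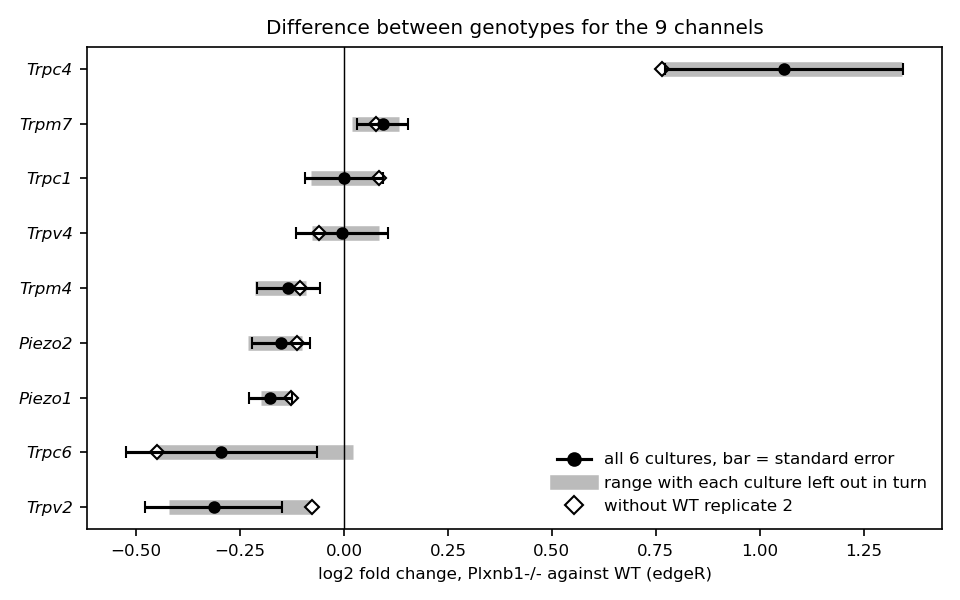
Log2 difference (Plxnb1-/- minus WT) of each channel gene from edgeR, with bars for the SE, a grey band for the range with each culture left out in turn, and a diamond for the value without WT replicate 2. Trpc4 stands at 1.06, and its grey band runs from 0.76 to 1.34. The other genes stand between -0.31 and 0.09, and their grey bands lie between -0.45 and 0.13.

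Levels between genes were compared per length, as counts per kilobase of merged exons scaled to the same sum over all genes in each library (TPM). Piezo1 had the highest level, 88.2 TPM on average over the 6 cultures (range 79.8 to 97.2). Trpm7 followed at 36.7 TPM (33.7 to 42.2) and Piezo2 at 29.6 TPM (27.6 to 33.2). With these lengths the ranges of the 3 genes did not meet each other, and Piezo2 was 4.12 times as high as the next gene, Trpm4. Trpm4 at 7.18 TPM, Trpv2 at 6.16 TPM and Trpv4 at 5.12 TPM formed a middle run in which each gene overlapped its neighbour. Trpc1 came next at 4.18 TPM, below Trpv4 in all 6 cultures. Trpc6 at 1.37 TPM and Trpc4 at 1.03 TPM were lowest and could not be ordered, as Trpc6 was higher in 4 of the 6. When the longest coding transcript replaced the merged exons, Trpc1 passed Trpv4 and Trpc4 passed Trpc6, and Piezo2 at 34.5 TPM was nearer to Trpm4 at 13.1 TPM. With the whole gene span as the length, Trpm4 (6.96 TPM) lay above Piezo2 (3.76 TPM), so only Piezo1 and Trpm7 kept the top of the order under all 3 lengths.

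**Figure D3:**
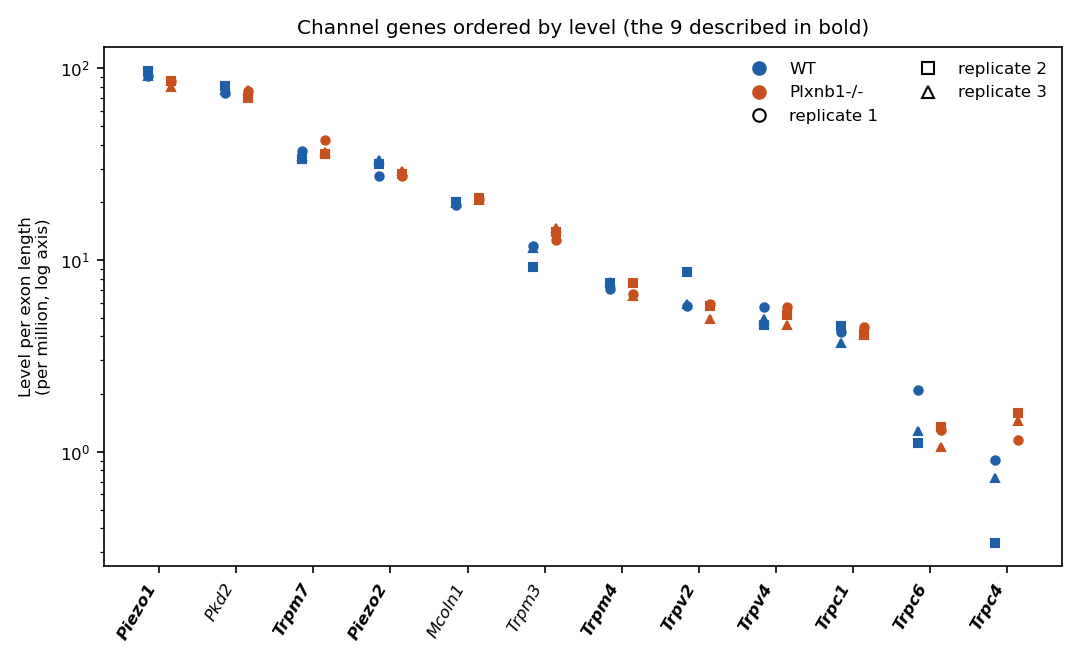
Per-length level (TPM, log axis) of the 9 channel genes and of Pkd2, Mcoln1 and Trpm3 in the 6 cultures, ordered by their mean, with WT and Plxnb1-/- cultures as separate points and the 9 genes in bold. With merged exons as the length, Piezo1 averages 88.2 TPM and Trpc4 1.03 TPM, the ends of the order of the 9 genes. With the longest coding transcript or the gene span, Pkd2 lies above Piezo1 and Trpc6 below Trpc4.

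The TRP genes outside the group put these levels in context. Pkd2, which encodes the polycystin-2 channel of cilia and endoplasmic reticulum, was at 76.0 TPM (merged exons), the lysosomal channel gene Mcoln1 at 20.3 TPM and Trpm3 at 12.3 TPM. Of the summed level of all TRP genes on merged exons, Trpm7 made up 18.3 ± 1.08% in WT and 19.4 ± 1.12% in Plxnb1-/- (SD, n = 3 each). Trpc1, Trpc4 and Trpc6 together made up 3.28 ± 0.431% and 3.48 ± 0.183%. The higher Trpc4 level in knockout cultures thus shifted the TRPC share by less than the spread within WT.

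Trpv1 and Trpm8, known from sensory neurons, were low in these cultures. Trpv1, the capsaicin receptor, was at 1.05, 1.33 and 1.04 CPM in WT and at 2.11, 1.82 and 1.38 CPM in Plxnb1-/-, with a log2 difference of 0.64 and an edgeR adjusted p of 0.284. The cold channel gene Trpm8 had at most 4 counts in any library and did not pass the filter, as Trpc5, Trpc7, Trpv5, Trpm1, Mcoln3 and Pkd2l1 did not. The summed level of 10 sensory neuron markers was 22.5, 29.3 and 28.3 CPM in WT and 28.8, 27.1 and 45.4 CPM in Plxnb1-/-, and the part of residual neurons in the Trpv1 and Piezo2 values was not tested.

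Levels of cell type markers differed among the cultures. In bulk RNA, fewer cells of a type and less RNA per cell cannot be told apart. The 8 SC markers, among them Sox10 and S100b, summed to 2642, 2270 and 2705 CPM in WT and to 2736, 3018 and 3087 CPM in Plxnb1-/-. The 4 satellite glia markers summed to between 1070 and 1256 CPM in WT and between 1296 and 1324 CPM in Plxnb1-/-, so neither sum overlapped between the genotypes. The 6 fibroblast markers, among them Pdgfra and Dcn, summed to 767, 1109 and 887 CPM in WT and to 789, 781 and 781 CPM in Plxnb1-/-. Mural cell markers summed to between 696 and 844 CPM in WT and between 717 and 733 CPM in Plxnb1-/-. The fibroblast and mural sums overlapped between the genotypes. Macrophage markers summed to between 44.7 and 50.6 CPM in WT and between 52.3 and 61.7 CPM in Plxnb1-/-, with no overlap. Of single tested genes, 19.7% did not overlap. Log2 differences were above 0 for 7 of 8 SC, 4 of 4 satellite glia, 1 of 6 fibroblast, 5 of 6 mural, 2 of 6 endothelial, 8 of 8 macrophage and 9 of 10 sensory neuron markers, where they were above 0 for 51.5% of all tested genes. edgeR called none of these 48 markers, where it called 0.0358% of all tested genes. An unadjusted edgeR p below 0.05 was found for 15 of the 48, where 13.7% of all tested genes had one. DESeq2 called 2 of the 48, where it called 1.5% of all tested genes. These 2 were the macrophage genes C1qb (adjusted p 0.0215) and Cx3cr1 (adjusted p 0.0497).

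WT replicate 2, which had the lowest sum of SC markers and the highest sum of fibroblast markers, also had the lowest Trpc4 value and the highest Trpv2 and Piezo1 values of all 6 cultures. None of the markers was at 0 in every library. The part of the cell mixture in the channel values was not tested. Without WT replicate 2, the log2 difference was 0.76 for Trpc4 and -0.13 for Piezo1. Genotypes that do not overlap in all 6 cultures cannot overlap once a culture is left out, so overlap gives no check here.

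**Figure D4:**
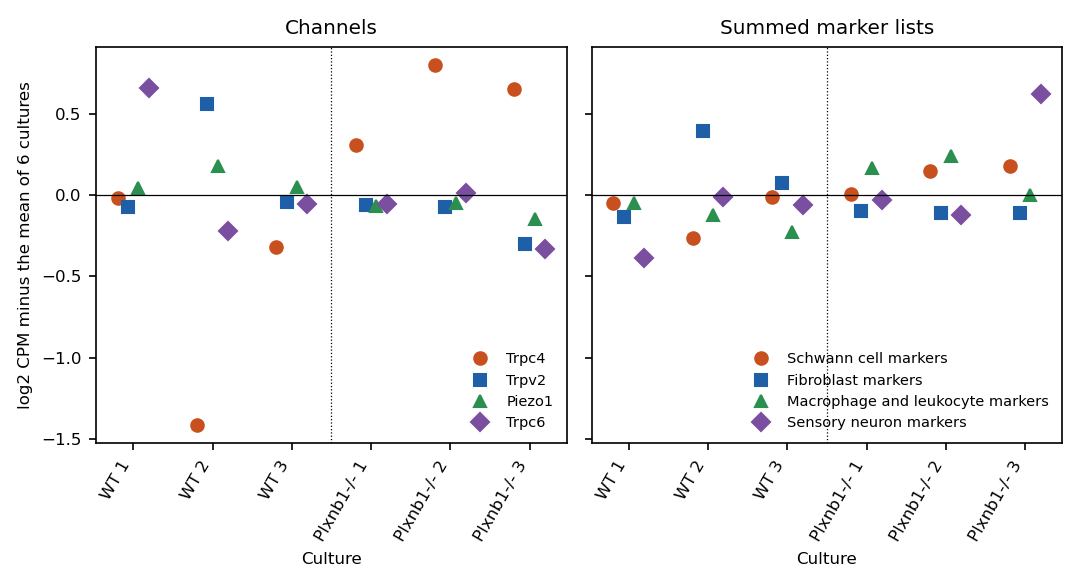
Log2 CPM of Trpc4, Trpv2, Piezo1 and Trpc6 in each culture (left) beside the summed SC, fibroblast, macrophage and sensory neuron markers (right), each less its mean over the 6 cultures. WT replicate 2 has the lowest SC sum, 2270 CPM, the highest fibroblast sum, 1109 CPM, and the lowest Trpc4 value, 0.735 CPM.

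The 5 genes whose log2 CPM followed Trpc4 most closely over the 6 libraries, of 14991 genes with a mean of at least 1 CPM, were Ugt1a6a, Usp6nl, Bcl9, Gnptab and Add3. Pearson's r lay between 0.995 and 0.997, and these points share library depth, genotype and the low WT replicate 2. Picking the highest r of 14991 genes over 6 points favours such high values. These genes differed far less between genotypes than Trpc4, with log2 differences from 0.13 for Gnptab to 0.31 for Ugt1a6a. Among the channels, Trpm3 ran with Trpc4 (r = 0.977), and Piezo1 (r = -0.921) and Trpv2 (r = -0.895) ran against it.

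Gene structure bears on some of these values. In GENCODE M21 on GRCm38, Trpc4 lies on chromosome 3, from 54156035 to 54318471 on the plus strand, with 11 exons. Piezo1 lies on chromosome 8, from 122481698 to 122551329 on the minus strand, with 51 exons. Of its 9935 exonic bases 2441, or 24.6%, also lie in exons of Ctu2 on the opposite strand. The strand setting of the counting is not given in the sources used here. Whether the shared bases lowered or raised the Piezo1 counts was not tested. No other gene of the 9 shares exonic bases with another gene. Trpc1, at 95705082 to 95750375 on chromosome 9, and Trpc6, at 8544142 to 8680741, are on the chromosome of Plxnb1, 13.35 Mb and 100.41 Mb from it. Bowtie2 does not align reads across introns, so reads over exon junctions may be missing from the counts. Piezo2 and Trpm7 have 54 and 39 exons. Neither such a loss nor its effect on their levels was tested.

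Around the channels, 8 lists of related genes were read in the same fit. They included the remaining TRP genes, other channels opened by membrane stretch or swelling with their relatives, and channel partners. The others held Gq-coupled receptors, Gq subunits and phospholipases C, calcium store genes, calcium-dependent effectors, and calcium pumps and exchangers. Of the 141 genes in the 8 lists, 125 were tested. edgeR called 0 of the 125, with a lowest adjusted p of 0.130. An unadjusted edgeR p below 0.05 was found for 28 of the 125, where 13.7% of all tested genes had one. DESeq2 called 6 of the 125, or 4.8%, where it called 1.5% of all genes. The genotypes did not overlap for 13 higher and 17 lower genes, or 24.0%, against 19.7% of all genes. List medians lay between -0.03 for the partners and 0.11 for the phospholipase C list.

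Among the 24 tested Gq-coupled receptors, the class that acts upstream of TRPC channels, DESeq2 called 3 lower in knockout cultures. It called 0.811% of all tested genes lower. F2rl1, which encodes the protease receptor PAR2, was at 73.8, 96.9 and 75.0 CPM in WT and at 54.7, 52.0 and 47.8 CPM in Plxnb1-/-. Every knockout culture was below every WT culture, with a log2 difference of -0.67 (SE 0.10), a DESeq2 adjusted p of 3.34e-07 and an edgeR adjusted p of 0.130. F2r, the thrombin receptor gene PAR1, went from 141 ± 19.2 to 109 ± 9.47 CPM (SD, n = 3 each), with a log2 difference of -0.37 and adjusted p of 0.0190 in DESeq2 and 0.273 in edgeR. The serotonin receptor gene Htr2b was low throughout, at 1.80, 3.02 and 1.77 CPM in WT and 1.11, 1.39 and 0.909 CPM in Plxnb1-/-, with adjusted p of 0.0232 in DESeq2 and 0.273 in edgeR.

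The other 3 genes called by DESeq2 were a TRP channel, a phospholipase and a stretch-activated potassium channel. Trpm3, a channel opened by pregnenolone sulfate and heat, was at 76.5, 61.4 and 74.8 CPM in WT and at 81.3, 91.0 and 94.9 CPM in Plxnb1-/-, with a log2 difference of 0.33 (SE 0.09) and adjusted p of 0.0289 in DESeq2 and 0.273 in edgeR. Plch1, a phospholipase C, was at 2.86, 2.10 and 3.29 CPM in WT and at 3.85, 4.23 and 4.36 CPM in Plxnb1-/-, with adjusted p of 0.0330 in DESeq2 and 0.273 in edgeR. Kcnk2, which encodes the potassium channel TREK-1, was at 8.14, 12.6 and 9.66 CPM in WT and at 6.35, 5.45 and 5.78 CPM in Plxnb1-/-, with adjusted p of 1.20e-04 in DESeq2 and 0.228 in edgeR.

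Trpv6, a calcium-selective channel gene, was at 7.06 ± 0.589 and 8.36 ± 0.626 CPM (SD, n = 3 each), with an edgeR adjusted p of 0.319. Among the calcium store genes, neither edgeR nor DESeq2 called any of the 12, and the log2 differences were 0.20 for Itpr3 and -0.20 for Itpr2, both inositol trisphosphate receptors. In the other lists without a call by either tool, the widest differences among genes of at least 1 CPM were -0.42 for Homer2, a scaffold that binds TRPC channels, -0.39 for Camk4, a calcium-dependent kinase, and -0.28 for Atp2b4, a plasma membrane calcium pump. The largest positive differences in those lists were 0.17 for Slc9a3r1, 0.30 for Camk2b and 0.14 for Slc8a3. In the list of stretch or swelling channels with their relatives, the log2 difference was 0.18 for Tmc6. It was 0.32 for the receptor gene Adra1b and -0.19 for the phospholipase C gene Plcg1. Log2 differences lay between -0.08 and 0.05 for Pkd2, Mcoln1, Pkd2l2 and Trpm5.

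**Figure D5:**
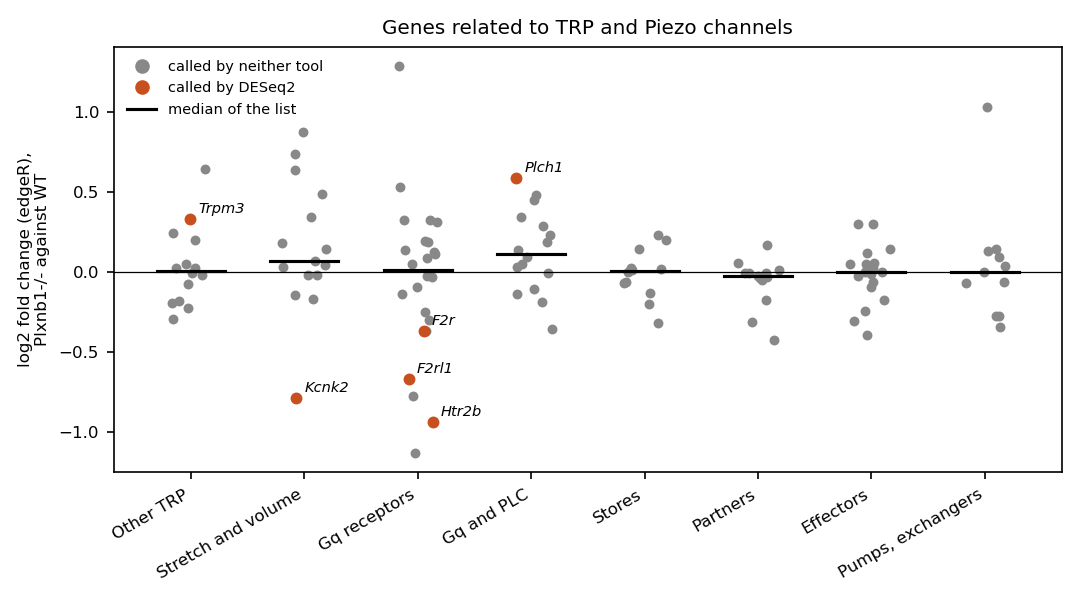
Log2 difference (Plxnb1-/- minus WT) of each tested gene in the 8 lists of related genes, 1 point a gene, with a bar for the list median. The medians of the 8 lists lie between -0.03 and 0.11, and the 6 genes called by DESeq2 are marked.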

How the data were processed

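Bulk poly(A) RNA-seq of cultured SCs was compared between 3 WT and 3 Plxnb1-/- libraries, grouped by the genotype labels. The authors trimmed reads (Trim Galore 0.6.5), aligned them to mm10 (Bowtie2 2.4.1, SAMtools 1.10), removed duplicates and counted reads on exons with featureCounts. The deposited counts are not normalized. The deposited FPKM values take the whole gene, introns included, as the length of all 9 channel genes. Counts from 1 to 10 were even in 66.2% of values, against 50.0% of counts over 1000, a pattern that counting both mates of a pair would give, so low counts may hold fewer fragments than their number.

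The filter on low counts kept genes with 2 or more counts in 5 or more libraries (22318). The main test was edgeR 4.0.16 (TMM, quasi-likelihood, genotype only) under R 4.3.3, with Benjamini-Hochberg adjustment over all tested genes, and calls needed adjusted p < 0.05 with a log2 fold change of more than 0.25 either way. DESeq2 1.42.0, which the study used, was the alternative on the same genes. CPM are TMM-scaled, and log2 CPM used a prior count of 2. TPM were computed from merged exons of GENCODE M21, which matched 55141 of the 55401 identifiers (the authors used M25). limma 3.58.1 was run on log2(FPKM + 0.1). Tables and plots used Python 3.11.15, pandas 2.3.3, NumPy 2.4.6 and matplotlib 3.10.9. The fits were first tested on simulated data.

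The members, the lists and the tests were chosen with earlier results of these data known. Named genes are all 9 channels, Plxnb1, the 5 genes most like Trpc4, and from each list the called genes, the largest rise and fall among genes of at least 1 CPM, and TRP genes above 1 CPM, apart from 1 gene that is not reported here. Nothing in the labels says that the 3 cultures of a genotype came from separate animals, so p-values measure the spread between these cultures only, which may be technical. Floors of 3 counts cover counting error only. Alternatives were other size factors, filters and tools, calls with no minimum fold change, a replicate block, other gene lengths, and each library left out in turn.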

Additional observations from a re-analysis of the deposited data

How the results depend on the processing

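edgeR called 8 of all genes, DESeq2 335, edgeR without the filter on low counts 296, edgeR on genes with at least 1 CPM in 3 libraries 5, and limma on log2 FPKM 3. With each library left out in turn edgeR called between 4 and 25, the most without WT replicate 2. Of the 9 channel genes, 0 were called by edgeR and 1, Trpc4, by DESeq2 and by edgeR without the filter. Of the 125 related genes 0 were called by edgeR, 6 by DESeq2 and 5 without the filter (Htr2b, Kcnk2, F2rl1, F2r and Trpm3), and between 0 and 1 with a library left out, the 1 being F2rl1 without WT replicate 2 (log2 difference -0.53, edgeR adjusted p 0.0151). The causes of these differences were not tested.

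The number of channel genes whose genotypes did not overlap was 2, and between 2 and 6 with a library left out. Leaving a library out can only keep or raise this number, so the 2 do not show stability. Over all genes the share went from 19.7% to between 25.9% and 35%. It was 6 without WT replicate 1 (Trpc4, Trpv2, Trpm4, Trpm7, Piezo1 and Piezo2), a setting in which 35% of all genes did not overlap. Without Plxnb1-/- replicate 2 it was 3, with Trpm4 added, and 30.9% of all genes did not overlap. Of 117 recomputed fold changes of the 9 genes, 116 moved by less than 1 SD of log2 CPM between cultures of a genotype. The exception was Trpc4 with limma on log2(FPKM + 0.1), at 0.12, where the pseudocount of 0.1 exceeds the FPKM of Trpc4 in every library. Leaving out 1 of 3 cultures could hardly move a value by 1 such SD, so the 116 do not show stability. Among them, Trpc6 went from -0.295 to 0.021 without WT replicate 1. Trpv2 went from -0.313 to -0.078 without WT replicate 2. In the order of levels, 5 of the 9 genes kept their rank with the longest coding transcript and 3 with the gene span.

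Neither the labels nor the methods say whether the replicate numbers pair the samples. Same-numbered cultures deviated from their genotype means with correlations of -0.0218, 0.00782 and 0.0653. Cultures with different numbers had correlations from -0.053 to 0.0485. With 3 cultures a genotype, these values cannot decide whether the cultures were paired. With a replicate block, edgeR called 5 of all genes, 0 of the 9 channels and 0 of the related genes, and the log2 difference of Trpc4 was 1.096. Depth limits Trpc4 and Trpc6 most, which had between 43 and 247 counts a library, and 3 cultures a genotype limit every comparison.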
